A study of Mus musculus with 4 samples.

Results

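The odorant-binding lipocalins Obp1a, Obp1b, Obp2a, Lcn11, Mup5 and Mup4 were followed through 4 single-cell RNA libraries of the mouse main olfactory epithelium. The 6 genes were chosen by name, out of 22399 genes in the features tables, and all 6 were found there. All libraries were made from 3-month-old C57BL/6J wild-type mice, with no treatment and no transgene named in the labels. They fall into 2 groups by sex, female 1 and 2 and male 1 and 2. The labels do not say whether a library held 1 animal or several, so p-values measure the spread between these libraries only. Cells were freed with papain, and the chemistry read the 5′ ends of transcripts. A count is a UMI, a tag that marks 1 captured RNA molecule, and a barcode marks 1 droplet.

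Lipocalins are small secreted proteins that fold into a barrel around a greasy ligand. Odorant-binding lipocalins are made by nasal glands and released into the mucus, where they bind airborne compounds. Major urinary proteins (Mups) are lipocalins best known from liver and urine, and some are also made in glands of the head. Droplets also take up RNA that leaked from broken cells, so a secretory gene can appear at a low level in cells that do not make it.

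On GRCm38 with GENCODE M21, the genes lie in 3 places. Obp1a (ENSMUSG00000067684) lies at chrX:78085505-78091374 on the minus strand and Obp1b (ENSMUSG00000067679) at chrX:78186777-78192292 on the plus strand. Obp2a (ENSMUSG00000062061) lies at chr2:25700043-25703326 and Lcn11 (ENSMUSG00000069080) at chr2:25777017-25780279, both on the plus strand. Mup4 (ENSMUSG00000041333) lies at chr4:59956804-59960710 and Mup5 (ENSMUSG00000058523) at chr4:61831319-61835233, both on the minus strand. A pair of further lipocalin genes of the X cluster enters the results below because they were abundant beside the 6, Gm14744 at chrX:77864758-77870033 (plus) and 5430402E10Rik at chrX:77919786-77925062 (minus). The latter was added to the lists after the data were seen.

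Reads were taken near the 5′ end, so the starts of the coding sequences show how well relatives can be told apart. The first 90 coding bases in GENCODE M21 are given for 3 pairs. Capitals mark bases of the second gene that the alignment of the pair did not match to the same base in the first.
Obp1a: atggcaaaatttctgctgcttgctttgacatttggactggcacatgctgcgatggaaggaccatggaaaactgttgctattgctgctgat
Obp1b: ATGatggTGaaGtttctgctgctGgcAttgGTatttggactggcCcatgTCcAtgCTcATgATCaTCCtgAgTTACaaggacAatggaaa
Obp2a: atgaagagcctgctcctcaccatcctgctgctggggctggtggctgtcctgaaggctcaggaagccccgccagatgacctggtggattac
Obp2b: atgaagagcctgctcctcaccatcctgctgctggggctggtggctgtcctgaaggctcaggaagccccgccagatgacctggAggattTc
Mup4: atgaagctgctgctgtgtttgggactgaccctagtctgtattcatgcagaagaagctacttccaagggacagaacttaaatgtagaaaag
Mup5: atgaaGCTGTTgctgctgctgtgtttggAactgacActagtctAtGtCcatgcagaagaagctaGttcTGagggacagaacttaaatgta
Obp1b had 30 unmatched bases against Obp1a, and the transcripts of this pair shared no run longer than 25 bases and 0 of 708 windows of 50 bases. Obp2b had only 2 unmatched bases against Obp2a, and their transcripts shared a run of 130 bases. Over their whole coding sequences they were 75.2% identical, and 81 of 695 windows of 50 bases in the Obp2a transcript also occurred in Obp2b. The split of UMIs between Obp2a and Obp2b is therefore uncertain for reads in the shared stretches. Mup5 had 14 unmatched bases against Mup4. Of the 873 windows of 50 bases in the Mup4 transcript, 96 also occurred in Mup5, so the split between these is uncertain in part. Gm14744 and 5430402E10Rik were 98.7% identical over their coding sequences (519 aligned positions), and their split is uncertain too.

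The promoters of 5 of the 6 genes are in the RefSeq table for GRCm38.p6, which lacks Mup5. The 250 bases before each RefSeq start were searched on both strands for TATAA, the core of a TATA box. It was found for Obp1a, Obp1b, Obp2a and Mup4 and not for Lcn11. For Mup4 the motif began 27 bases before the RefSeq start but past the GENCODE start. Among all 32851 windows of this length, 22.8% held it. The windows around the motif are shown for the members and neighbours of the X and chromosome 2 clusters that were abundant together in the barcode described next. In each of them the motif began 30 bases before the GENCODE start. They run 5′ to 3′ on the strand of the gene, with the motif in capitals.
Obp1a, chrX:78091387-78091424, minus: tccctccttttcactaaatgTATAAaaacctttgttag
Obp1b, chrX:78186727-78186764, plus: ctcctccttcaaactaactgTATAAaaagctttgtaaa
Obp2a, chr2:25699993-25700030, plus: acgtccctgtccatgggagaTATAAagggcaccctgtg
Gm14744, chrX:77864708-77864745, plus: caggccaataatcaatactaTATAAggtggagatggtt
5430402E10Rik, chrX:77925075-77925112, minus: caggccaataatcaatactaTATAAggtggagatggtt
The windows of Gm14744 and 5430402E10Rik read the same, and 248 of the 250 bases before their RefSeq starts were equal. A match of letters is a description and does not show that a factor binds there.

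The 4 libraries held between 100725429 and 111577458 UMIs over 10256 to 10777 barcodes. After filters on genes, mitochondrial share and doublets, 8916 to 9384 cells remained in each, with median depths between 8275.5 and 9086.5 UMIs. Library pairs shared between 136 and 172 barcode sequences.

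The 6 genes were rare, and their UMIs fell almost entirely in 2 of the 4 libraries. Female 1 held 1448 UMIs of the 6 genes and male 2 held 4750, while female 2 held 26 and male 1 held 36. For Obp1a the females gave 717 and 1 UMIs and the males 10 and 1460. For Obp1b the females gave 322 and 1 and the males 4 and 948. One female and one male library were thus high for both genes, and the other library of each sex was near 0. Lcn11 counts were 231 and 1 in the female libraries, against 7 and 476 in male ones. Mup4 counts were 147 and 2, and 7 and 254. These followed the order of Obp1a and Obp1b over the libraries. Obp2a differed from these, with 26 and 21 in female libraries, which were alike, and 6 and 809 in male ones. For Mup5 the females gave 5 and 0 and the males 2 and 803, so that male 2 alone held more than 5.

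**Figure D1:**
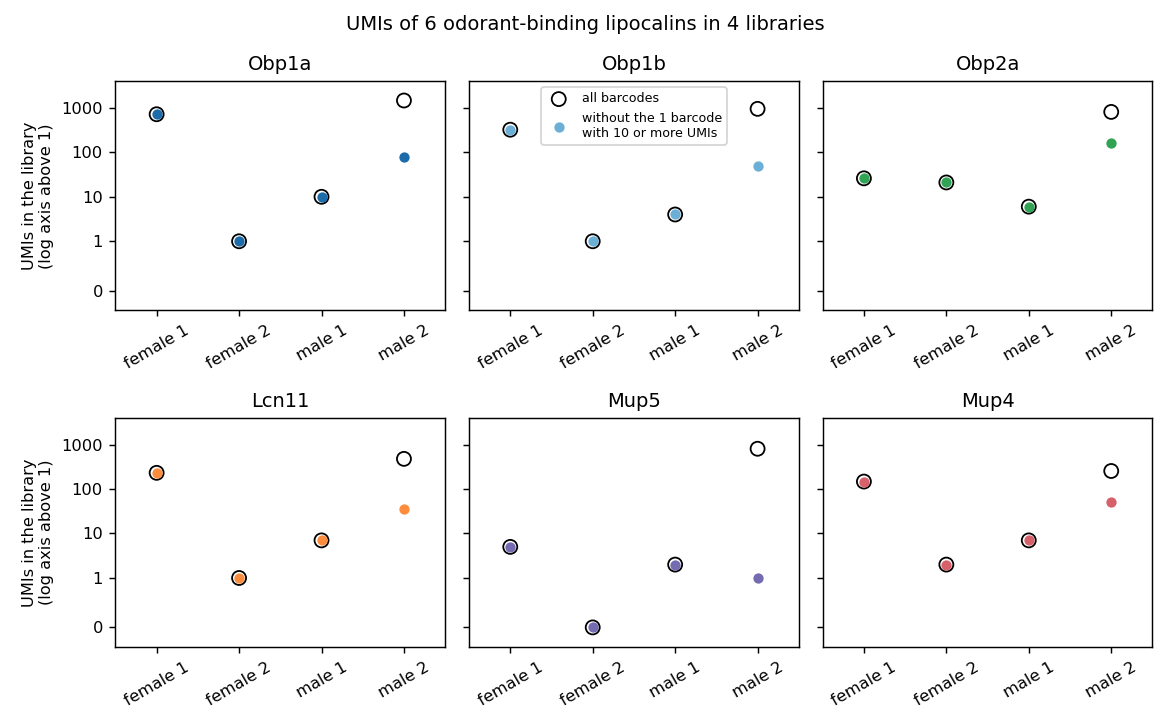
UMIs of each of the 6 genes (vertical axis, log scale above 1) in female 1, female 2, male 1 and male 2 (horizontal axis). Open circles count all barcodes, and filled points leave out the 1 barcode with 10 or more UMIs of a gene. In male 2 the Obp1a count goes from 1460 to 79 without that barcode, while in the other libraries circles and points coincide.

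Most of the UMIs of male 2 came from 1 barcode. It was the only one of 41911 barcodes with 10 or more UMIs of any of the 6 genes, and it passed that limit for all 6 at once. It held 1381 UMIs of Obp1a, 898 of Obp1b, 802 of Mup5, 650 of Obp2a, 441 of Lcn11 and 202 of Mup4. This was 63.1% of all Obp1a UMIs of the series, 70.4% of Obp1b, 99.0% of Mup5, 75.4% of Obp2a, 61.7% of Lcn11 and 49.3% of Mup4. The highest count in any other barcode was 3 for Obp1a, 2 for Obp1b, 9 for Obp2a, 3 for Lcn11, 1 for Mup5 and 3 for Mup4. The gap between the 1 barcode and the next was thus over an order of magnitude for each gene. With a limit of 20 UMIs the count stayed at 1 barcode, and with a limit of 5 it rose to 6, the other 5 for Obp2a alone.

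The barcode had 6741 UMIs in all, and the 6 genes made up 64.9% of them. Gm14744 added 598 UMIs and 5430402E10Rik added 510, which took the 8 lipocalins to 5482 UMIs or 81.3%. The remaining 1259 UMIs were spread thinly. Next in order came Cyp2a5, a cytochrome P450 abundant in sustentacular cells, with 27 UMIs, and Tpt1, a housekeeping gene, with 14. The Cyp2a5 share of all UMIs of this barcode was 0.41 of its share over all other cells. The lipocalins lower this ratio, as Cyp2a5 held 27 of the 1259 UMIs left. Only 858 genes were detected, against 1622 or more in the other cells of male 2 whose depth lay within 10% of it (1093 cells with this one). Mitochondrial genes gave 0.163% of its UMIs, against a median of 2.09% in the cells of male 2. The lipocalins lower both values, since they left 1259 UMIs for all other genes. Cells matched to that smaller number were not compared. Its doublet score was 0.06, it was kept as a cell, and its barcode sequence occurred in 0 of the other libraries.

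**Figure D2:**
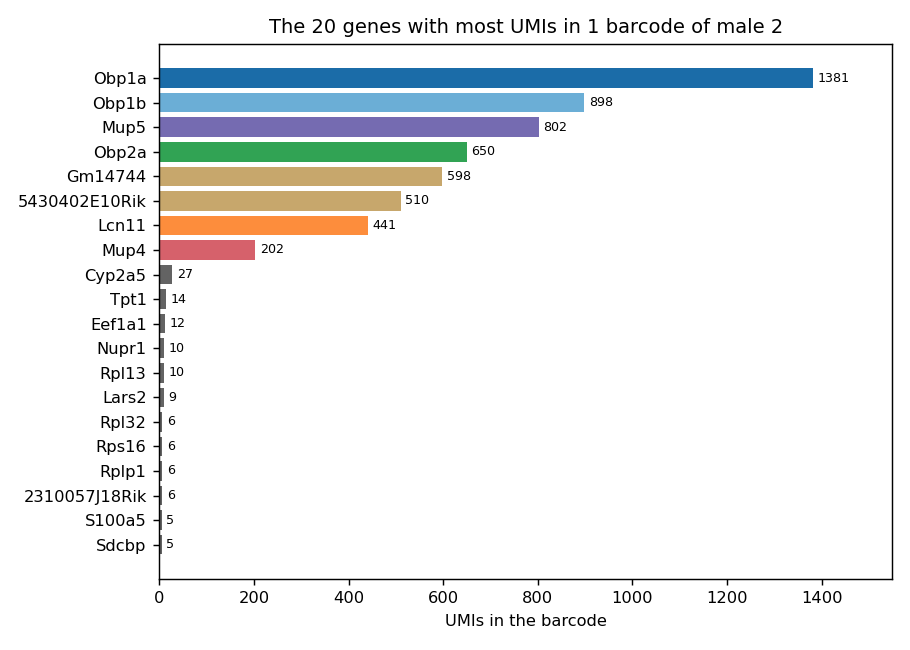
UMIs (horizontal axis) of the 20 most abundant genes (vertical axis) in the 1 barcode of male 2 with 10 or more UMIs of the odorant-binding lipocalins. The 6 genes and 2 neighbours of the X cluster run from 1381 down to 202 UMIs, and the next gene, Cyp2a5, has 27.

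Known markers did not place this barcode in a cell type. Of 22 marker lists, 17 had 0 UMIs in it, and 114 of 127 marker entries were at 0. Of the 13 markers of nasal gland cells, Aqp5, a water channel of gland cells, had 2 UMIs and Bpifb9b had 1. The other 11 were at 0, among them Sox9, Sox10, Bhlha15 and Muc5b. Summed, these gland markers made up 0.0445% of the barcode, against a median of 0.691% and a range from 0% to 32.4% in the 73 gland-class cells of male 2. The sustentacular list gave 33 UMIs or 0.49%, below the lowest of the 1616 sustentacular-class cells of male 2 (1.07%). The mature neuron list gave 6 UMIs or 0.089%, below the lowest of 5064 mature neurons (0.182%). The respiratory secretory list gave 4 UMIs, 3 of them from Bpifa1, or 0.0593% against 1.65% or more in the 89 cells of that class. The last list with a UMI was the erythroid one, with 1. These shares are of all UMIs of the barcode, of which 5482 were lipocalins, so the lipocalins lower them. Of the 1259 UMIs left, 33 were of the sustentacular list and 6 of the mature neuron list. As shares of those UMIs, both lie above the lowest cells of their classes (1.07% and 0.182%). Other shares over those UMIs were not set against the classes. Clustering placed the barcode among 376 cells of an unnamed cluster, whose other cells held 21 UMIs of the 6 genes in all. With 1 barcode there is no replicate of this pattern.

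Beyond Gm14744 and 5430402E10Rik, the genes with the highest ratios in the barcode rested on few UMIs. With the 6 genes left out, and among genes with at least 500 UMIs in the series, 5430402E10Rik had the highest ratio of its share there to its share in all other cells, and Gm14744 the next. The following 8 genes of that ranking rested on 1 to 3 UMIs each, led by Bglap3 with 3. The transcript 2310057J18Rik had 6 UMIs in this barcode and 0 in all others. It was singled out after its values were seen.

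Apart from the X cluster neighbours, other lipocalins and secreted genes of the nose gave few or no UMIs in this barcode. Of 35 other nasal lipocalins in the features, 3 had UMIs in it, Gm14744 with 598, Obp2b with 3 and Gm14743 with 1. Lcn2, which binds bacterial iron carriers, had 13523 UMIs in the series and 0 in the barcode. Apod and Ptgds, lipocalins that bind lipids, had 38469 and 3779 UMIs in the series and also 0 there. The 20 other Mup genes in the features gave 1 UMI in all, from Mup15. How far reads of these 20 genes can be told apart from each other was not computed, so the count does not show their absence. Of 41 secreted mucus genes, 4 had UMIs in it, 9 UMIs in all. These were Bpifa1 with 3, Wfdc18 with 3, Scgb1c1 with 2 and Bpifb9b with 1. Bpifa1, a marker of respiratory secretory cells in the lists used here, alone had 3032788 UMIs in the series.

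In female 1 the same genes were found without any barcode rich in them. A UMI of at least 1 of the 6 genes occurred in 1284 of 10777 barcodes, or 11.9% (95% Wilson interval 11.3% to 12.5%). Of these barcodes, 1142 held 1 UMI, 128 held 2, 10 held 3 and 4 held more, up to 7. For Obp1a, 82.4% of the 717 UMIs were the only one of their barcode. In female 2 and male 1 the shares were 0.127% and 0.263%, and in male 2 it was 3.2%. Intervals and floors here and below cover counting error only.

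Barcodes kept as cells were then gated by markers that are not among the 6 genes, to read the level in cells not known to make these proteins. Omp-positive barcodes, mature olfactory sensory neurons, had at least 10 UMIs of Omp and at most 10% Cyp2g1 among the UMIs of both genes. Cyp2g1-rich barcodes, sustentacular supporting cells, were defined the other way round. There were 4216 to 4389 Omp-positive and 1557 to 1694 Cyp2g1-rich barcodes per library. In Omp-positive barcodes of female 1, Obp1a gave 304 UMIs, or 69.6 per 1000 barcodes (exact Poisson 95% interval 62.0 to 77.9). The other libraries gave 0 (female 2), 2 (male 1) and 33 UMIs (male 2), the last being 7.52 per 1000 barcodes (5.18 to 10.6). Female 1 was 97.9-fold above a floor of 3 counts for female 2, a value without the counting error of female 1. It was 148-fold higher than male 1 (40.7 to 1230) and 9.26-fold higher than male 2 (6.46 to 13.7). Over the 4 libraries the mean was 19.4 ± 33.7 (SD, n = 4) per 1000 barcodes, a spread wider than the mean.

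The same libraries stood apart for 3 other genes. In Omp-positive barcodes of female 1, Obp1b gave 29.8 UMIs per 1000 barcodes (24.9 to 35.4), Lcn11 gave 18.1 (14.3 to 22.6) and Mup4 gave 14.0 (10.7 to 18.0). In male 2 these were 4.1, 1.59 and 3.19 per 1000 barcodes. In female 2 all 3 were at 0 UMIs, which allows up to 0.712 per 1000 barcodes, and in male 1 each had 1 UMI. Obp2a went against this order. It gave 0.687 UMIs per 1000 Omp-positive barcodes in female 1 and 12.1 (9.05 to 15.8) in male 2, with 1 UMI in female 2 and 0 in male 1. Mup5 gave 1 UMI in the Omp-positive barcodes of female 1 and 0 in those of the other libraries.

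**Figure D3:**
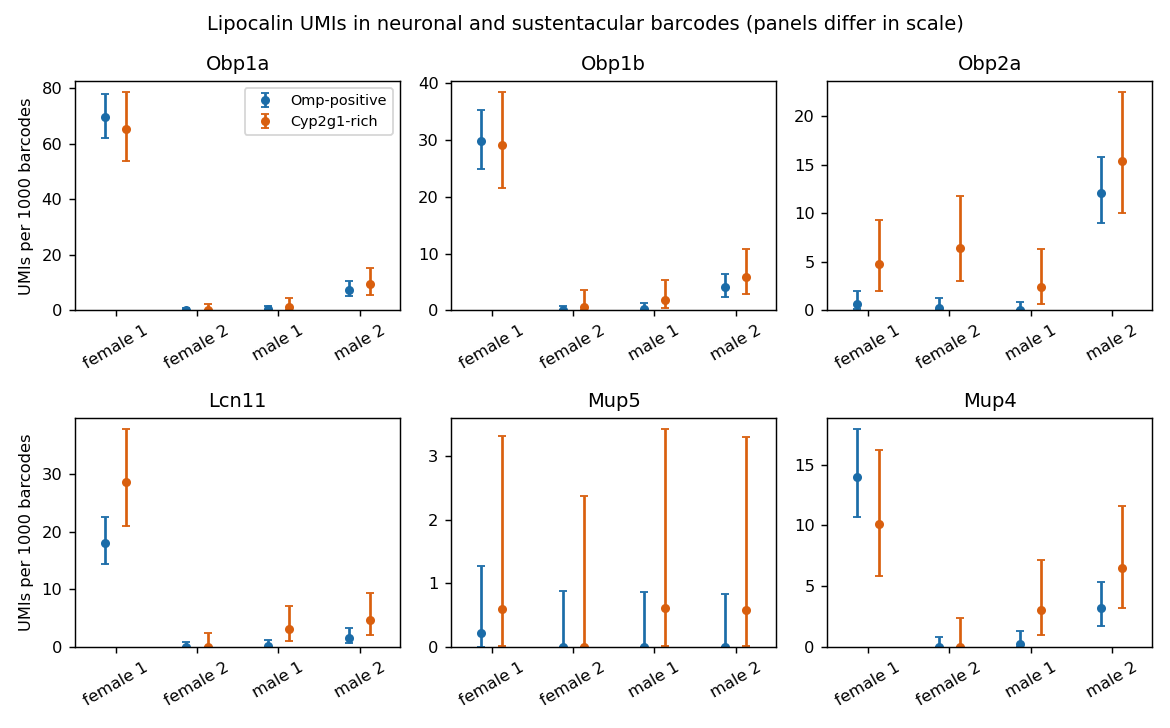
UMIs per 1000 barcodes (vertical axis, with exact Poisson 95% intervals) of each gene in Omp-positive (blue) and Cyp2g1-rich (orange) barcodes of the 4 libraries. Obp1a sits at 69.6 and 65.3 in female 1 and below 10 in the other libraries, while Obp2a is highest in male 2.

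RNA of other cell types was also read in these barcodes. Of 4 sustentacular genes read in Omp-positive barcodes, Cbr2 and Ermn were highest in female 1, Sec14l3 in female 2 and Cyp2a5 in male 2. Cbr2, a carbonyl reductase, gave 1174 and 1020 UMIs per 1000 barcodes for females, against 820 and 1040 for males. Cyp2a5 gave 2215 and 2013 for females, against 1920 and 2589 for males. Of 4 neuronal genes read in Cyp2g1-rich barcodes, Gng13, Cnga2 and Stoml3 were lowest in female 1, and S100a5 was lowest in female 2. Gng13, a G protein subunit, gave 1820 and 1993 per 1000 barcodes for females, against 2921 and 2388 for males. The libraries thus differed by less for these genes than for Obp1a.

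Secreted mucus genes differed between the libraries, with no common order. Of 27 with at least 20 UMIs in Omp-positive barcodes, female 1 was the highest library for 13, male 2 for 7, female 2 for 4 and male 1 for 3, a count per barcode made after the data were seen. Female 1 was over 2-fold above every other library for 4 of them, Bpifa1, Bpifb1, Chil4 and Tff2. Bpifa1, the most abundant, gave 7499 UMIs per 1000 Omp-positive barcodes there, against 2258 to 3532 in the others. Tff2, a trefoil peptide of mucus, gave 33.9 against 10.5 to 12.1. Male 2 was over 2-fold above every other library for 3 of them, Bpifb5, Bpifb9a and Bpifb9b. Bpifb9b, a gland marker, gave 12 and 6 UMIs in Omp-positive barcodes of the females and 53 and 2253 in those of the males. Male 1 was over 2-fold above every other library for 1, Bpifb3, with 1470 UMIs per 1000 barcodes against 214 to 520. This rank rested on 1 barcode, which held 5577 of the 6259 Bpifb3 UMIs in Omp-positive barcodes of male 1. The share of Omp-positive barcodes with a Bpifb3 UMI was lowest in male 1, at 11.7% against 17.3% to 24.5%. Scgb1c1 and Gpx6 were lowest in female 1, at 2202 and 40.8 UMIs per 1000 barcodes. The part of secretory RNA in the high Obp1a of female 1 and the high Obp2a of male 2 was not tested.

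In female 1, the levels of Obp1a, Obp1b and Mup4 per barcode were not told apart by kind of cell. Obp1a gave 65.3 UMIs per 1000 Cyp2g1-rich barcodes (53.7 to 78.7), a ratio of 0.938 (0.747 to 1.17) to the Omp-positive level, although the median depths were 13801 and 8637 UMIs. Obp1b gave a ratio of 0.977 (0.689 to 1.37) and Mup4 a ratio of 0.722 (0.396 to 1.25). For these 3 genes the interval of the ratio included 1, and that of Mup4 was wide, with 17 UMIs in Cyp2g1-rich barcodes. Lcn11 gave 28.5 UMIs per 1000 Cyp2g1-rich barcodes against 18.1, a ratio of 1.57 (1.08 to 2.28). Counted per 1000000 UMIs instead of per barcode, the Obp1a ratio was 0.572 (0.456 to 0.713). Obp1b gave 0.596 (0.42 to 0.833) and Mup4 gave 0.44 (0.241 to 0.764), so these 3 intervals lay below 1. Lcn11 gave 0.96 (0.656 to 1.39). Without thinning, 6.16% of the Omp-positive barcodes held an Obp1a UMI. After each was thinned to 2000 UMIs, the share was 1.87%, and 1.0% of the Cyp2g1-rich barcodes (46 Omp-positive barcodes were shallower and left out).

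Within the neurons of female 1, the number of Obp1a UMIs per barcode showed no steady rise with depth. The Omp-positive barcodes were ordered by depth and cut into 4 bins of equal size, with median depths from 4732.5 to 12727 UMIs. From the shallowest bin to the deepest, Obp1a gave 68.7, 71.5, 76.1 and 62.3 UMIs per 1000 barcodes. The intervals of all 4 bins overlapped. Per 1000000 UMIs the level was 15.1 in the shallowest bin and 4.56 in the deepest. Obp1b gave 27.5, 30.2, 33.9 and 27.5 UMIs per 1000 Omp-positive barcodes over the same bins, and Lcn11 gave 19.2, 21.1, 12.8 and 19.2. In Cyp2g1-rich barcodes the bins gave 54.6, 54.6, 68.9 and 83.1 UMIs of Obp1a per 1000 barcodes, also with overlapping intervals. These values did not fall with depth at any step, and a trend was not tested. Per 1000000 UMIs they were 7.92 in the shallowest bin and 3.51 in the deepest. In Omp-positive barcodes, none of the 3 genes rose steadily with depth.

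**Figure D4:**
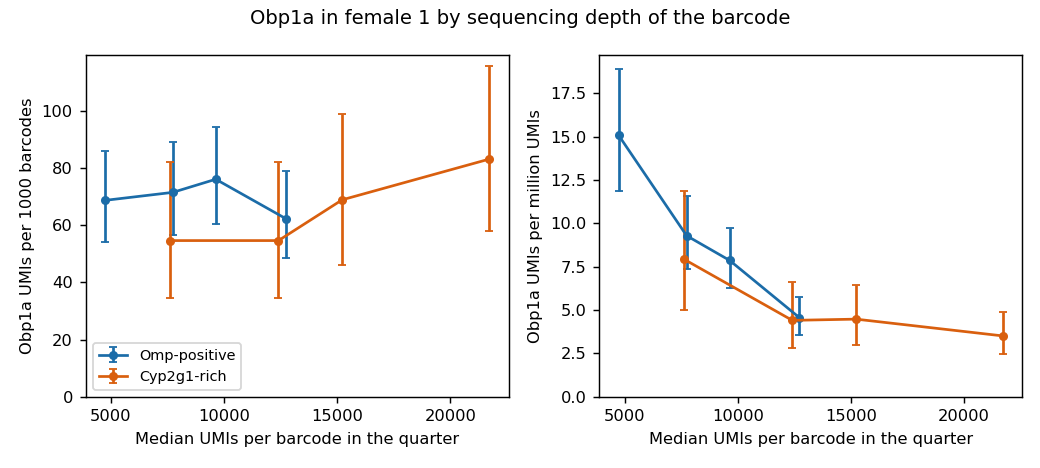
Obp1a in female 1 by depth. Each point is 1 of 4 equal bins of the Omp-positive (blue) or Cyp2g1-rich (orange) barcodes at its median depth (horizontal axis), with exact Poisson 95% intervals. UMIs per 1000 barcodes (left) lie between 54.6 and 83.1, with the highest value in the deepest Cyp2g1-rich bin. UMIs per 1000000 (right) fall from 15.1 to 4.56 in Omp-positive barcodes.

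Over the 15 classes of clusters in female 1, counting the unnamed cells as 1 class, UMIs of the 6 genes ranged from 62.5 per 1000 cells in globose basal cells (17.0 to 160) to 207 in macrophages (133 to 308). Mature neurons gave 136 (126 to 147), sustentacular cells 130 (113 to 149) and gland-class cells 125 (54.0 to 246). The intervals of all 14 classes other than mature neurons included the level of mature neurons. Gland-class cells, the class with markers of secretory glands, therefore did not stand above the others at this depth (64 cells with 8 UMIs).

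The makeup of the UMIs differed between the sources. In the 1 barcode of male 2, Mup5 was 18.3% of the UMIs of the 6 genes (exact 95% interval 17.2% to 19.5%). Outside it, Mup5 was 0.266% of 376 UMIs in male 2 and 0.345% of 1448 UMIs in female 1. Obp1a was 31.6% in the barcode, 21% in the rest of male 2 and 49.5% in female 1. Obp2a was 14.9%, 42.3% and 1.8% in the same order. Obp1b was closer, at 20.5%, 13.3% and 22.2%. The intervals for Mup5 in the rest of male 2 and in female 1 did not overlap that of the barcode. Within female 1, Omp-positive and Cyp2g1-rich barcodes gave Obp1a shares of 52.6% and 47.2%, Obp1b shares of 22.5% and 21% and Mup4 shares of 10.6% and 7.3%. Lcn11 took 13.7% (11.0% to 16.7%) and 20.6% (15.6% to 26.4%), and Obp2a took 0.519% (0.107% to 1.51%) and 3.43% (1.49% to 6.65%).

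**Figure D5:**
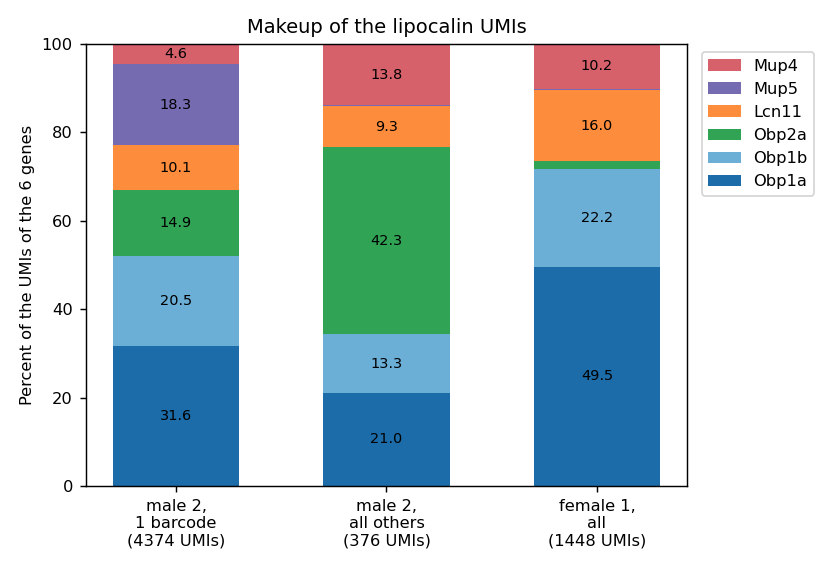
Percent of the UMIs of the 6 genes (vertical axis) taken by each gene in the 1 barcode of male 2 (4374 UMIs), in all other barcodes of male 2 (376 UMIs) and in female 1 (1448 UMIs). Mup5 is 18.3% of the first bar and under 1% of the others, and Obp2a is 42.3% of the second.

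The X cluster neighbours followed Obp1a over the libraries. Outside the barcode, the female libraries gave 438 and 2 UMIs of Gm14744, against 6 and 62 from males. For 5430402E10Rik the females gave 202 and 3 and the males 0 and 13. In Omp-positive barcodes of female 1, Gm14744 reached 43.5 UMIs per 1000 barcodes, between Obp1a and Obp1b.

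Outside the 1 barcode, Obp2a was the only one of the 6 with 5 or more UMIs in any barcode. In all, 15 other barcodes held 2 or more Obp2a UMIs, of which female 1 had 3, female 2 had 4, male 1 had 1 and male 2 had 7. In 5 of them the count was 5 or more. These 5 held 9, 7, 6, 5 and 5 UMIs of Obp2a, and 3, 7, 5, 1 and 2 UMIs of Obp2b. The barcode with 9 was removed as a doublet, and the other 4 fell in the sustentacular class, with Cyp2g1 counts of 316, 4, 387 and 244. They came from female 1, female 2 and male 2. These barcodes also held 5 of the 10 UMIs of Lcn3 and 5 of the 8 UMIs of Lcn4 in the whole series, genes known as vomeronasal secretory lipocalins. They held 0 UMIs of Obp1a, Obp1b, Lcn11, Mup4 and Mup5. With so few counts this is a description, and reads of Obp2b could in part be reads of Obp2a. In the 1 rich barcode of male 2, 650 UMIs of Obp2a went with 3 of Obp2b. The part of misassigned reads in these 5 barcodes was not tested.

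Cyp2g1-rich and Omp-positive barcodes were compared over the libraries with the quasi-likelihood test of edgeR on summed counts, with the library as a block. Of the 5 genes that passed the filter on low counts, 0 changed at an adjusted p under 0.05, while 89.9% of the 15036 genes tested did. None of the 5 reached an unadjusted p under 0.05 (0 of 5). Mup5 was too low to be tested. Obp1a gave a log2 ratio of Cyp2g1-rich to Omp-positive of -0.45 (SE 0.32, adjusted p = 0.218). Obp1b gave -0.08 (SE 0.52, adjusted p = 0.882) and Lcn11 gave 0.66 (SE 0.51, adjusted p = 0.263). Mup4 gave -0.00 (adjusted p = 0.997). Most genes tested separated the 2 cell types, and these 5 did not pass. Their counts were low, and the share called among genes of like abundance was not computed.

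Counted per barcode, Obp2a was higher in Cyp2g1-rich barcodes in 4 of 4 libraries. It gave 4.75 UMIs per 1000 barcodes against 0.687 in female 1, 6.42 against 0.237 in female 2, 2.46 against 0 in male 1 and 15.3 against 12.1 in male 2. In male 2, which held most of the UMIs, the ratio per barcode was 1.27 (0.763 to 2.07), an interval that includes 1. Per 1000000 UMIs, male 2 ran the other way, with 1.09 against 1.5 and a ratio of 0.73 (0.438 to 1.19). Of these UMIs, 5 of 8 in female 1, 7 of 10 in female 2 and 5 of 26 in male 2 came from the 3 barcodes with 5 or more described above. The log2 ratio was 1.34 (SE 0.78, edgeR adjusted p = 0.139), which did not pass. Scaled by the number of barcodes in place of UMIs it was 2.02 (SE 0.76, edgeR adjusted p = 0.0361), where 91.1% of all genes passed. With DESeq2 it was 2.41 (SE 1.13, adjusted p = 0.0381), where 87.3% of all genes passed. The call for Obp2a therefore depended on the scaling and the tool. Per barcode, Lcn11 gave 1.3 on the log2 scale (SE 0.53, edgeR adjusted p = 0.0524). Scaling by barcodes moved the median log2 ratio of all genes from -0.03 to 0.64, and the calls from 6632 higher and 6885 lower to 9506 higher and 4191 lower.

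The other lists behaved differently in this comparison. Of 28 secreted mucus genes tested, 24 rose in Cyp2g1-rich barcodes and 0 fell, with a median log2 ratio of 3.08 against -0.03 over all genes. Over all genes, 44.1% rose and 45.8% fell. Muc2, a gel-forming mucin, gave 7.46 and Azgp1, a secreted zinc-binding glycoprotein, gave 6.41 (edgeR adjusted p = 1.75e-10 for both). Of 5 other lipocalins tested, Lcn2 rose (4.83, adjusted p = 4.53e-09), Ptgds rose (2.36, adjusted p = 0.00323) and Lcn12 fell (-5.37, adjusted p = 0.000226).

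Sex differences were not detectable for any of the genes. Summed over all cells, 0 of the 5 genes tested passed, against 0.0301% of 16609 genes (edgeR quasi-likelihood test, 2 females against 2 males). With DESeq2 0 passed, and Obp2a had an unadjusted p of 0.039 (adjusted p = 0.469). The log2 ratio of male to female was 1.39 for Obp1a (SE 2.51, edgeR adjusted p = 0.916) and 4.55 for Obp2a (SE 2.13, edgeR adjusted p = 0.739). With the 1 barcode of male 2 left out, the Obp1a ratio turned to -2.8. Without female 1 it was 9.42, and without male 2 it was -4.94. In Omp-positive barcodes 0 of 3 genes tested passed, against 0.0072% of 13882 genes, with Obp1a at -2.94 (SE 2.44, edgeR adjusted p = 0.884). In Cyp2g1-rich barcodes 0 of 4 passed, against 0.169% of 13604 genes, with Obp1a at -2.53 (SE 1.45, edgeR adjusted p = 0.77). The interaction of sex with the kind of barcode called 0 of 5, against 0.0133% of 15036 genes. By edgeR, in each of the 4 tests 0 of the genes reached an unadjusted p under 0.05. Of 29 secreted mucus genes tested over all cells, 1 fell in males and 0 rose. This was Chil4, a chitinase-like secreted protein (log2 -3.1, SE 0.13, edgeR adjusted p = 0.0316), and with any 1 library left out 0 genes were called. Gpx6, a glutathione peroxidase of the olfactory mucosa, was the 1 of 28 to pass the interaction (log2 -2.36, SE 0.14, edgeR adjusted p = 0.0169), where keeping doublets left 0 calls. Of 8 other lipocalins tested over all cells, 0 passed.

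Patterns over clusters depended on the 1 barcode. Over 38 clusters, the genes most alike Obp1a in log2(CPM + 1) were Gm14744 (Pearson r = 0.859) and 5430402E10Rik (r = 0.797). These also led for Obp1b, Obp2a, Lcn11 and Mup5, and Mup4 was below the 500 UMIs required. Hbb-bt, a globin gene, came next for Obp1a, Obp1b, Lcn11 and Mup5, and Dll3 for Obp2a. With the barcode left out, an alternative chosen after seeing the data, the 5 most alike genes of Obp1a shared 1 with the first list, those of Obp1b shared 1, and those of Obp2a, Lcn11 and Mup5 shared 0. The clusters share libraries and depth, so these correlations are descriptions.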

How the data were processed

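The authors deposited raw UMI counts per gene and barcode for 4 libraries, with no normalization. They were made with Cell Ranger 6.0.2 per the file headers, while the submitters' processing notes name Cell Ranger 5.0.1 and build mm10. The annotation and the calling of cells are not given in the sources used here. Samples were grouped by the sex in the labels, 2 libraries each. The 6 genes, the lists and the tests were chosen with earlier results of these data known.

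Barcodes with under 500 genes or over 10% mitochondrial UMIs were left out, 493 to 610 per library. The 747 to 836 barcodes with the highest doublet scores per library (0.8% per 1000 barcodes, 2 simulated doublets per barcode) were removed too. Totals of the 6 genes and the search for rich barcodes used all deposited barcodes. Cells were clustered with leidenalg 0.10.2 (resolution 1) and named from marker lists. CPM are counts per 1000000 UMIs. Thinned shares are expected values at 2000 UMIs.

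Sums per library were tested with edgeR 4.0.16 (glmQLFTest, TMM, filterByExpr, Benjamini-Hochberg, two-sided, threshold 0.05) in R 4.3.3, and with DESeq2 1.42.0 as an alternative. The edgeR step was tested on simulated data. An SE is the log2 ratio divided by the square root of the F statistic. Library pairs differed by more than sampling noise (chi-square per gene 20.1 to 37.6). Named were the 6 genes, the 5 genes most alike each over clusters, the 10 with the highest ratio in the rich barcode, and, from each list, the 5 with most UMIs there and those past a test. Alternatives were other scalings, filters, gates, doublets kept, blocks and leaving out each library.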

Additional observations from a re-analysis of the deposited data

How the results depend on the processing

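None of the 6 genes passed under any of the 37 alternatives of the 3 sex tests or the 12 of the interaction, and Obp2a alone passed in 3 of the 14 of the comparison of cell types. The mean levels rested on single libraries. Leaving out 1 library gave 2.66 to 25.9 UMIs of Obp1a per 1000 Omp-positive barcodes, 1.45 to 11.4 of Obp1b, 0.61 to 6.64 of Lcn11 and 1.14 to 5.8 of Mup4, lowest without female 1, and 0.308 to 4.33 of Obp2a, lowest without male 2. With DESeq2 the genes called numbered 414 for sex over all cells (edgeR 5), 227 in Omp-positive barcodes (1), 75 in Cyp2g1-rich barcodes (23) and 17 for the interaction (2). The cause of these shifts was not tested. Without the filter on low counts, Cyp2g1-rich barcodes gave 7 calls, and with doublets kept 13, while the interaction with doublets kept gave 0. Gates at 20 UMIs gave 3 calls for sex in Omp-positive barcodes, and gates at 5 UMIs gave 1 for the interaction and, as a limit for rich barcodes, 6 barcodes. Leaving out 1 library gave 0 to 0 calls for sex over all cells, 0 to 1 in Omp-positive barcodes, 15 (without male 1) to 41 (without female 2) in Cyp2g1-rich barcodes and 1 (without female 1) to 53 (without male 2) for the interaction, with 28 without male 1.

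A replicate block changed the calls for sex over all cells to 2 and left 1 in Omp-positive and 30 in Cyp2g1-rich barcodes. The labels give no reason for pairing, and deviations of libraries with the same number correlated at -0.0804, -0.0455 and 0.0404. The crossed pairing, added after seeing the data, gave 1, 0 and 70 calls. The interaction without the library block gave 0.

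Directions were unstable for genes that never passed. Without the rich barcode the log2 sex ratio was -2.8 for Obp1a, -2.36 for Obp1b, -2.34 for Lcn11 and -1.18 for Mup4. Leaving out 1 library, it ranged from -4.94 to 9.42 for Obp1a, -4.94 to 8.8 for Obp1b, -1.7 to 5.54 for Obp2a, -3.65 to 7.8 for Lcn11 and -3.00 to 6.89 for Mup4, with the lowest values without male 2 and the highest without female 1 (for Obp2a without male 1). Between cell types, leaving out 1 library gave -0.34 to 0.54 for Obp1b and -0.47 to 0.97 for Mup4. Scaling by barcodes turned Obp1a to 0.19, Obp1b to 0.56 and Mup4 to 0.65, and without the filter as well to 0.19, 0.58 and 0.67. DESeq2 gave 0.41 for Obp1b and 0.51 for Mup4, RLE scaling 0.0065 for Mup4 and keeping doublets 0.15. Depth limits Mup5 outside the rich barcode, with 8 UMIs in all.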
